A study of Mus musculus with 32 samples.

Results

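The comparison described here is that of multipotent progenitors (MPP) with haematopoietic stem cells (HSC) in control mice carrying Mx1-CRE. It rests on 4 libraries, 2 labelled control HSC and 2 labelled control MPP, chosen by their sample titles from the 24 RNA-seq libraries among the 32 samples of the series. The control mice were C57BL/6, with the genotype given as wild-type and Mx1-CRE as the Cre driver, and their age was given as 10 weeks, 2 months after pIpC. Both populations were sorted as lineage-negative, cKit+, Sca1+ and CD48- cells, CD150+ for HSC and CD150- for MPP. The study set these controls beside Mx1-CRE mice with Jak2V617F (2 HSC and 2 MPP libraries) and with Jak2V617F plus Jarid2KO (2 and 2), all of the same strain, age and treatment label. A second cohort held Vav-CRE control and Jarid2-KO mice of 8 weeks, with 3 HSC and 3 MPP libraries each. The sample labels and the series' design text disagree on 1 Mx1 group, Jak2V617F in the former and Jarid2-KO in the latter, and the former were followed. A single protocol text covers all RNA-seq samples. It describes pools of male and female mice aged 8 weeks and 3 biological replicates, which are the number and age of the Vav groups and not of the Mx1 groups. Whether the Mx1 replicates came from separate pools is therefore not given, and p-values measure only how far these libraries differ, which may be technical. Cohort, Cre driver, age and pIpC treatment change together between the cohorts and cannot be told apart.

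HSC renew themselves and are mostly out of cycle. MPP are their offspring, keep the ability to form all blood lineages for a limited time, and begin to express genes of the lymphoid and myeloid lines. Within the cKit+ Sca1+ compartment, CD150 (encoded by Slamf1) marks stem cells, CD48 (Cd48) marks later progenitors, and the receptor tyrosine kinase gene Flt3 rises as lymphoid potential is primed. Mx1-CRE is driven by an interferon-inducible promoter, which pIpC switches on.

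The 4 libraries did not carry the same mixture of transcripts. Their total counts were 15302401 and 14398789 for HSC replicates 1 and 2 and 20724168 and 9273253 for MPP replicates 1 and 2. A list of 20 heart muscle genes took 1.02% and 1.27% of the counts in the HSC libraries, 0.627% in MPP replicate 1 and 9.67% in MPP replicate 2, against at most 0.00332% in any of the 12 Vav libraries. Ttn, the giant sarcomere protein of striated muscle (ENSMUSG00000051747, mm10 chromosome 2, 76703980 to 76982547), stood at 3486 and 4257 CPM (counts scaled to the library total) in the HSC libraries, 2128 in MPP replicate 1 and 32850 in MPP replicate 2. Myh6, the cardiac myosin heavy chain, stood at 1896 and 2266, 1159 and 17420 CPM. All 20 heart genes were higher in MPP replicate 2 than in the mean of the HSC libraries, by 8.04-fold to 15.5-fold, and lower in MPP replicate 1, at 0.477 to 0.686 times that mean. Endothelial and stromal genes followed the heart genes: 18 of 18 list members with a mean of at least 10 CPM were above the HSC mean in MPP replicate 2 (median ratio 7.56) and the median ratio in MPP replicate 1 was 0.561. Mitochondrially encoded genes took 1.17%, 1.44%, 1.03% and 5.32% of the counts in the same order of libraries. A list of 20 genes restricted to blood cells, such as Ptprc and Coro1a, summed to 9453 and 9633 CPM in the HSC libraries, 10140 in MPP replicate 1 and 2370 in MPP replicate 2. Ddx3y, a gene of the Y chromosome, stood at 11.6, 14.6, 7.24 and 104 CPM, and Xist, the transcript of the inactive X chromosome, at 324, 317, 391 and 141 CPM, values looked up after the data were seen. MPP replicate 2 therefore differed from the other 3 libraries in heart, stromal, mitochondrial and blood transcripts at once. Of the 12 Mx1 libraries, 6 had over 4% of their counts in the heart list (6.34% to 9.67%) and 6 had less (0.545% to 1.27%). The high ones were 1 of 2 control MPP, 1 of 2 Jak2V617F HSC, 2 of 2 Jak2V617F MPP and 1 of 2 in each double mutant group, and none of 2 control HSC.

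**Figure D1:**
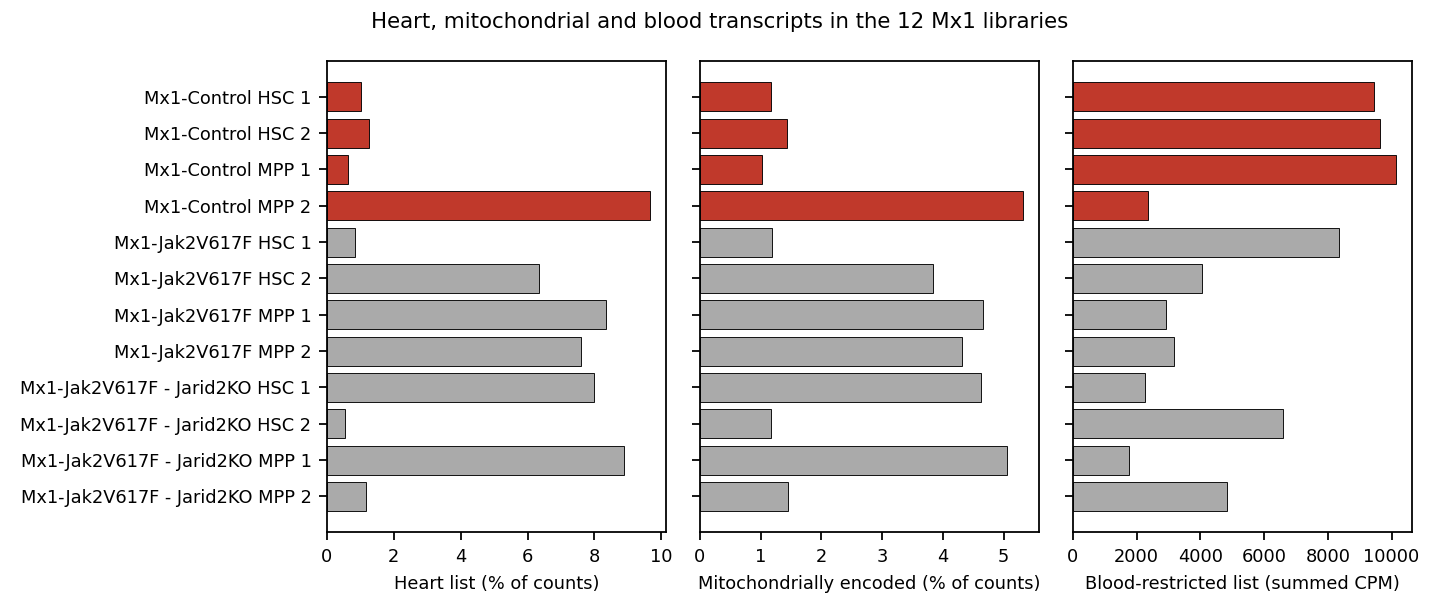
Bars give, for each of the 12 Mx1 libraries, the share of counts in the heart list and in mitochondrially encoded genes (percent) and the summed CPM of the blood-restricted list; the 4 control libraries are red and the other 8 grey. Control MPP replicate 2 has the longest heart bar, 9.67%, beside a blood list sum of 2370 CPM.

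The pairs of libraries did not group by cell type. Pairs were compared in TMM-normalised CPM, which adjusts library totals for composition. Of 9675 tested genes with a mean of at least 10 CPM, 9.82% differed over 2-fold between HSC replicate 2 and MPP replicate 1. This was the fewest of the 6 pairs. HSC replicates 1 and 2 differed in 16.2% of these genes, and HSC replicate 1 and MPP replicate 1 in 17%. MPP replicates 1 and 2 differed in 58.8%, and MPP replicate 2 differed from the HSC libraries in 60.7% and 54%. Pearson's r across 19588 genes of log2(CPM + 1), without heart list and mitochondrial genes, gave the same picture as a description: 0.963 for HSC replicate 2 with MPP replicate 1, 0.947 for the HSC pair and 0.831 for the MPP pair. The library most like MPP replicate 2 by this r was Jak2V617F MPP replicate 1 (0.952), another library high in heart transcripts. No 2 control libraries of a group were copies of each other, since their counts differed far beyond sampling noise (chi-square per degree of freedom 59.6 for the HSC pair and 557 for the MPP pair).

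**Figure D2:**
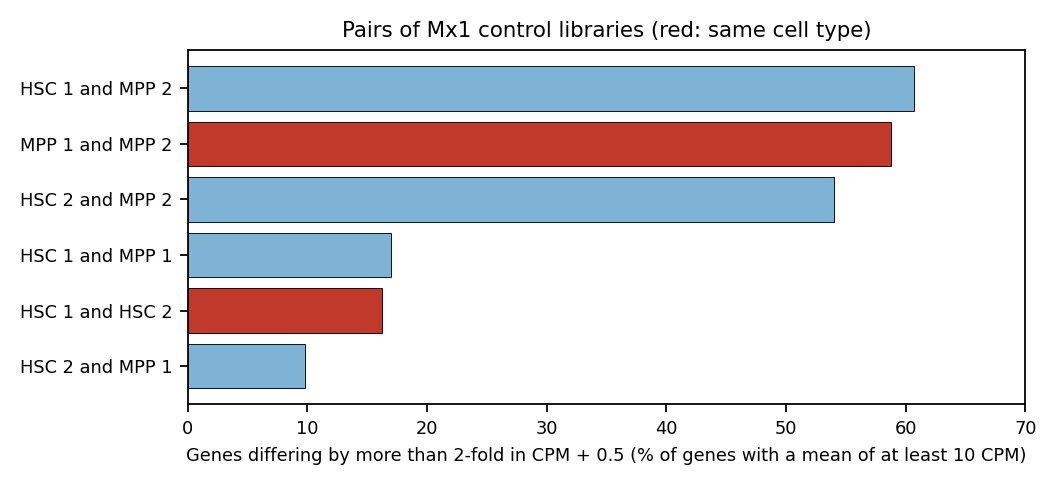
Horizontal bars give the percentage of genes differing over 2-fold in TMM-normalised CPM between each pair of the 4 Mx1 control libraries. The axis label names CPM + 0.5 instead. Red bars are pairs of the same labelled cell type. The red MPP pair (58.8%) and the red HSC pair (16.2%) both lie above HSC replicate 2 with MPP replicate 1 (9.82%).

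RNA levels of the sort markers did not separate the labelled groups and did not follow the sort gates. Slamf1 (ENSMUSG00000015316, chromosome 1, 171767127 to 171801184), which encodes the CD150 that HSC were selected for, stood at 0.196 and 5.21 CPM in the libraries labelled HSC and at 6.95 and 3.77 in those labelled MPP. Only 3 reads were counted for it in HSC replicate 1, and the groups overlapped. The Vav control libraries, given side by side, held 57.4 to 66.1 CPM of Slamf1 in HSC and 3.35 to 5.03 in MPP. Cd48 (ENSMUSG00000015355, chromosome 1, 171682009 to 171705258), whose protein both gates exclude, stood at 122 and 133 CPM in the libraries labelled HSC and at 127 and 37.4 in those labelled MPP, against 6.46 to 14.4 in Vav HSC and 26.5 to 49.1 in Vav MPP. All 4 libraries thus had low Slamf1, and 3 of 4 had more Cd48 than any Vav control library. Counts measure RNA and not the surface protein that was sorted on. In the following, HSC and MPP of the Mx1 cohort mean the libraries labelled so, and each direction between them rests on these labels.

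The other gate genes did not separate the groups either. Kit, the stem cell factor receptor, stood at 492 and 421 CPM in HSC and at 514 and 159 in MPP, below the means of 1371 (HSC) and 1513 (MPP) in the Vav controls. Ly6a, which encodes Sca1, stood at 8.50 and 13.3 CPM in HSC and at 6.71 and 63.4 in MPP, where the Vav control libraries held 49.3 to 150. Of the 4 libraries, 3 were therefore low in the RNA of a protein used to select both populations. The other, MPP replicate 2, was the one high in endothelial and stromal genes, and the source of its Ly6a RNA was not tested. Flt3 (ENSMUSG00000042817, chromosome 5, 147330741 to 147400489), a gene of lymphoid-primed progenitors, stood at 124 and 85.3 CPM in HSC and at 117 and 18.9 in MPP. Vav HSC held 27.3 to 69.3 CPM of it and Vav MPP 405 to 580. Cd34, a surface sialomucin gained by progenitors, stood at 418 and 351 CPM in HSC and at 389 and 183 in MPP, and the Vav means were 289 and 930.

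**Figure D3:**
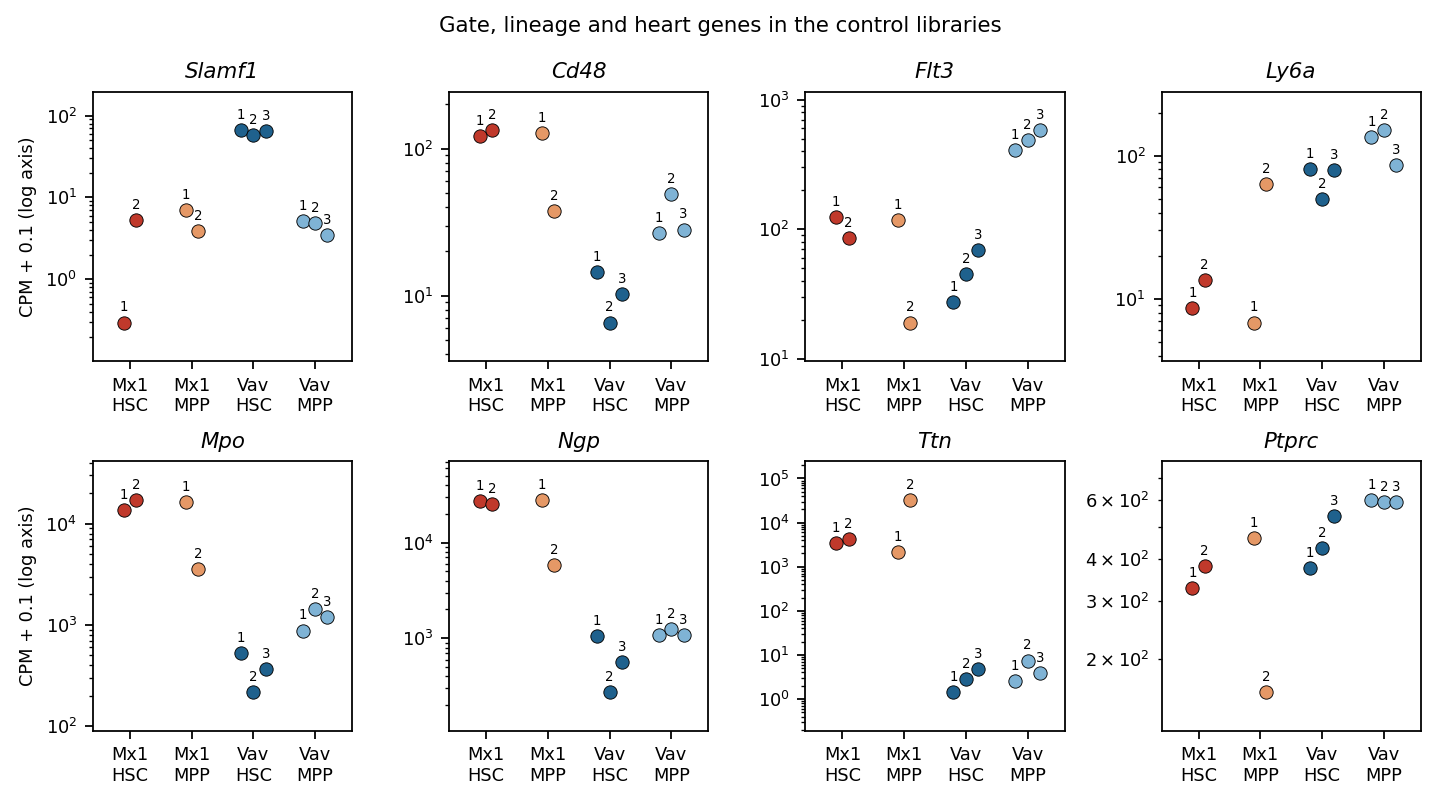
Points give CPM + 0.1 on a log axis for 8 genes in each Mx1 control library (2 HSC, 2 MPP) and Vav control library (3 HSC, 3 MPP), numbered by replicate. Slamf1 separates the Vav groups but not the Mx1 groups, Mpo and Ngp are far higher in all Mx1 libraries, and Ttn is highest in Mx1 MPP replicate 2.

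Genes of the granulocyte line were far above the Vav control levels in all 4 libraries. Ngp (ENSMUSG00000032484, chromosome 9, 110419750 to 110423010), a secondary granule protein of maturing neutrophils, stood at 27370 and 25190 CPM in HSC and at 27940 and 5842 in MPP. The Vav control libraries held 273 to 1254. Mpo (ENSMUSG00000009350, chromosome 11, 87793581 to 87804413), the myeloperoxidase of primary granules, stood at 13650 and 17220 CPM in HSC and at 16450 and 3585 in MPP, against 216 to 1438 in the Vav controls. The iron-binding granule protein gene Ltf reached 11780 and 10520 CPM in HSC and 13900 and 2354 in MPP, and was at most 504 in the Vav controls. The elastase gene Elane followed the same order, with 6995 and 8313 CPM in HSC and 7719 and 1750 in MPP. The 22 genes of the granulocyte and monocyte list took 7.94% and 8.48% of the counts in HSC, 8.36% in MPP replicate 1 and 1.99% in MPP replicate 2. In the Vav controls the same list summed to 1629 to 4450 CPM in HSC and 5490 to 7030 CPM in MPP, under 1% of the counts. In bulk libraries, fewer cells of a type and less RNA per cell cannot be told apart.

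Scaled to the blood-restricted list, MPP replicate 2 matched the other 3 libraries in granulocyte genes. The granulocyte and monocyte list summed to 8.40 and 8.81 times the blood list in HSC and to 8.24 and 8.41 times in MPP. The Vav control libraries lay at 0.284 to 0.824 in HSC and 0.665 to 0.918 in MPP. Per 10000 counts of the blood list, Mpo stood at 14440 and 17880 in HSC and 16220 and 15130 in MPP, so that the groups overlapped and MPP replicate 2 was within the range of the HSC. On the same scale Ngp stood at 28960 and 26140 in HSC and 27550 and 24650 in MPP, and Flt3 at 132, 88.5, 116 and 79.6. Other genes stayed high in MPP replicate 2 on this scale, such as Ly6a (8.99, 13.8, 6.62 and 268) and the von Willebrand factor gene Vwf (23.9, 31.7, 30.3 and 440).

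No gene passed the test of MPP against HSC. The fit used edgeR's quasi-likelihood test on all 12 Mx1 libraries with Benjamini-Hochberg adjustment, and a term that set apart the 6 libraries high in heart transcripts. It called 0 of 19616 genes (0%), with 1113 at an unadjusted p under 0.05 and a lowest adjusted p of 0.335. Without the heart term it again called 0 of 19616 (0%), with 523 at an unadjusted p under 0.05. The biological coefficient of variation, the spread between libraries of a group, was 55.6% with the term and 78.6% without it, against 33.7% in the Vav cohort. The Wald test of DESeq2 called 25 genes with the term, 8 higher and 17 lower in MPP, and 3 without it, and limma-voom with sample quality weights called 0 in both designs. HSC replicate 2 decided much of this: without it, 321 genes passed the quasi-likelihood test, 231 higher and 90 lower in MPP, with HSC replicate 1 as the only HSC library. Without HSC replicate 1, 3 genes passed, all lower in MPP, and without either MPP library none did. For a single value, 2 libraries against 2 cannot reach a two-sided exact permutation p below 0.333. Over all genes tested, the median log2 difference of MPP minus HSC was -0.17 with the heart term and 0.05 without it. With the term, 7761 of the 19616 genes had a difference above 0 and 11854 below. Counts of signs within lists below are to be read beside these.

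None of the sort markers passed the test. The fitted log2 difference of MPP minus HSC was 1.46 for Slamf1 (SE 1.29, 95% interval -1.85 to 4.77) and -0.43 for Cd48 (SE 0.35, -1.34 to 0.48). It was -0.04 for Kit (SE 0.32), 0.67 for Ly6a (SE 1.23), -0.30 for Flt3 (SE 0.39, -1.31 to 0.70) and -0.27 for Cd34 (SE 0.32). The adjusted p by edgeR's quasi-likelihood test was at least 0.907 for each of these 6. For Flt3 the interval leaves out the difference of 3.33 measured in the Vav controls, and for Slamf1 it leaves out their -3.90. For Ttn the log2 difference was -0.64 (SE 0.36) with the heart term and 2.04 (SE 1.5) without it, so its direction depended on the term.

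Jarid2 and Jak2, the genes altered in the mutant groups, are intact per the labels in the control mice. Jarid2, a subunit of Polycomb repressive complex 2, stood at 68.0 and 45.6 CPM in HSC and at 62.7 and 53.7 in MPP, which overlap (log2 difference 0.20, SE 0.36). Jak2, the kinase of cytokine receptors, stood at 18.6 and 34.9 CPM in HSC and at 57.3 and 46.3 in MPP. Both MPP libraries were above both HSC libraries, as for 11.2% of all 19616 genes, and the log2 difference of 0.91 (SE 0.38) had an adjusted p of 0.867 by edgeR's quasi-likelihood test. Of the 12 Polycomb repressive complex 2 genes, 0 were called, 8 had a log2 difference above 0 and 4 below, and the median was 0.12.

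No stem cell gene passed the test between MPP and HSC, and in CPM the list was below the Vav controls in all 4 libraries. The 40 genes of the stem cell identity list summed to 1270 and 1154 CPM in HSC and to 1320 and 2020 in MPP, against 8246 to 8720 in Vav HSC and 6537 to 6922 in Vav MPP. Of the 40, 26 had a log2 difference above 0 and 14 below, with a median of 0.33. Both MPP libraries were above both HSC libraries for 5 of the 40 (11.2% of all genes) and below them for 0. Hlf, a transcription factor of stem cells, stood at 14.3 and 33.5 CPM in HSC and at 37.0 and 26.2 in MPP, against 592 to 1163 in the Vav controls. Procr, which encodes the endothelial protein C receptor, gave 1 read (0.0653 CPM) in HSC replicate 1, 8.89 CPM in HSC replicate 2 and 2.85 and 2.91 in MPP, against 90.8 to 139. Both genes were below the lowest Vav control library in all 4 Mx1 libraries. The list stood at 0.134 and 0.12 times the blood list in HSC, 0.13 times in MPP replicate 1 and 0.852 times in MPP replicate 2, against 1.31 to 1.54 in Vav HSC and 0.802 to 0.869 in Vav MPP. On this scale MPP replicate 2 was therefore far above the other 3 libraries and within the Vav MPP range. In that last library 18 of 26 members with a mean of at least 10 CPM were above the HSC mean, among them Tie1, a receptor of endothelial cells (13.1, 25.6, 24.6 and 128 CPM), and Tgm2, a transglutaminase (33.7, 31.1, 25.1 and 238 CPM). The part of the stromal and endothelial transcripts in these values was not tested.

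Lymphoid priming genes summed to 2614 and 3972 CPM in HSC and to 2506 and 1156 in MPP, against 1029 to 1105 in Vav HSC and 2776 to 3058 in Vav MPP. Both Mx1 HSC libraries were above both Mx1 MPP libraries in this CPM sum. For HSC replicate 2 this order depended on the antibody genes Ighm and Jchain, which are on the list. They stood at 1680 and 173 CPM there, against 322 and 0.241 CPM in MPP replicate 1. Relative to the blood list the sum stood at 0.277 and 0.412 in HSC and 0.247 and 0.488 in MPP, so that on this scale the groups overlapped and MPP replicate 2 was highest. Of 23 lymphoid priming genes tested, 0 passed, 6 had a log2 difference above 0 and 17 below, and the median was -0.51, or -0.34 relative to the median of all genes. Dntt, the terminal transferase of lymphocyte precursors, stood at 122 and 164 CPM in HSC and at 119 and 37.2 in MPP, against 5.29 to 7.06 in Vav HSC and 36.8 to 56.1 in Vav MPP. Both HSC libraries and MPP replicate 1 thus lay above every Vav control library of either type for this gene. Cd53, a tetraspanin of leukocytes, stood at 583 and 542 CPM in HSC and at 522 and 149 in MPP. Both MPP libraries were below both HSC libraries for 6 of the 23 members and above for 3, beside 13.7% and 11.2% of all genes.

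The B lineage genes separated the HSC replicates from each other. The 16 genes summed to 528 CPM in HSC replicate 1 and 3202 in HSC replicate 2, with 581 and 590 in the MPP libraries. The immunoglobulin kappa constant gene Igkc stood at 6.86 and 1112 CPM in HSC and 8.06 and 104 in MPP, and the heavy chain gene Ighm at 365 and 1680, and 322 and 353. Jchain, which joins antibody units in plasma cells, stood at 0.327 and 173 CPM in HSC and 0.241 and 49.5 in MPP. The median log2 difference of HSC replicate 1 minus replicate 2 over the 16 genes was -2.36, the widest gap of the 27 lists between these replicates. Between MPP and HSC none of the 16 passed, with a median of -0.49. The 3 genes that passed without HSC replicate 1 were the immunoglobulin variable segments Ighv9-3 and Ighv8-12 and the actin regulator Cap1, named here after their values were seen. Ighv9-3 and Ighv8-12 belong to families of near-identical segments, and their counts are uncertain. Cap1 stood at 164 and 668 CPM in HSC and 131 and 186 in MPP, with HSC replicate 2 apart from the rest.

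Of the 22 granulocyte and monocyte genes, 21 had a log2 difference below 0, with a median of -0.58 (-0.42 relative to all genes), and none passed. Each MPP library was also set against the mean of the HSC in log2 TMM-normalised CPM. The list median was then 0.04 in MPP replicate 1 and -2.23 in MPP replicate 2. In CPM both MPP libraries were below both HSC libraries for 8 of the 22 (13.7% of all genes). MPP replicate 2 was below the HSC mean for all 22, and for all 20 blood-restricted genes, so 13.7% is not a like share. Among the 8 were the calprotectin subunit S100a8 (3938 and 5777 in HSC, 3307 and 2075 CPM in MPP) and the antimicrobial peptide gene Camp (3400 and 3924, 2710 and 836). Relative to the blood list, S100a8 was higher in MPP replicate 2 than in both HSC libraries, and Camp was slightly lower. The mast cell and basophil list had a median of -0.42 over 13 genes, T and NK cells -0.55 over 13, macrophages and dendritic cells -0.46 over 15 and the lineage markers that the sort removes -0.51 over 13, each with 0 called. Itgam, the integrin chain used to stain myeloid cells away in a lineage cocktail, stood at 315 and 318 CPM in HSC and 329 and 101 in MPP, against means of 13.5 and 51.1 in the Vav controls.

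Platelet, red cell and cycle genes held no called gene either, and in CPM the sums of the red cell and cycle lists were alike in 3 libraries and lower in MPP replicate 2. The erythroid list summed to 6629 and 7345 CPM in HSC and to 6865 and 2961 in MPP. The sum of the platelet list did not follow this, with 574 and 539 CPM in HSC and 672 and 726 in MPP. Most of its members did, since only 4 of 12 with a mean of at least 10 CPM were above the HSC mean in MPP replicate 2. Their median ratio was 0.468. Thbs1 (171 CPM), Cavin2 (167 CPM) and Vwf (104 CPM) gave much of the sum in that library. Of 22 megakaryocyte and platelet genes 0 passed and 13 had a log2 difference above 0 (median 0.13). Itga2b, the platelet integrin chain, stood at 88.4 and 39.6 CPM in HSC and 89.1 and 11.3 in MPP. The adaptor gene Cavin2 stood at 27.3 and 33.3 CPM in HSC and 25.4 and 167 in MPP. The 19 erythroid genes had a median of -0.20, and the carbonic anhydrase gene Car2 stood at 3863 and 4061 CPM in HSC and 3965 and 1475 in MPP. The S phase list (24 genes, median -0.14) summed to 6698 and 6904 CPM in HSC and 7019 and 1941 in MPP, and the mitosis list (24 genes, median -0.09) to 4932 and 5385, and 5459 and 1581. Relative to the blood list, the erythroid list stood at 0.701 and 0.762 in HSC and 0.677 and 1.25 in MPP. The platelet list stood at 0.0607 and 0.0559, and 0.0663 and 0.306. On the same scale S phase genes stood at 0.709 and 0.717 in HSC and 0.692 and 0.819 in MPP, and mitosis genes at 0.522 and 0.559, and 0.538 and 0.667. MPP replicate 2 was thus highest in each of these lists on this scale. In the Vav controls the S phase ratio was 0.582 to 0.591 in HSC and 0.333 to 0.411 in MPP, and the mitosis ratio 0.331 to 0.427 and 0.200 to 0.246. All 4 Mx1 control libraries were above these ranges for both lists. Mki67, a marker of cycling cells, stood at 419 and 364 CPM in HSC and 467 and 117 in MPP, against means of 186 and 135 in the Vav controls. The quiescence list of 19 cell cycle inhibitors, cyclins and related genes had 14 members above 0 and 5 below (median 0.16), with both MPP libraries above both HSC libraries for 5 (11.2% of all genes) and none called.

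Interferon response genes, of which several are induced by pIpC, were low in every Mx1 control library. The 30 genes summed to 615 and 772 CPM in HSC and to 725 and 521 in MPP, against 2455 to 2765 in Vav HSC and 2818 to 3019 in Vav MPP. The sum relative to the blood list was 0.0651 and 0.0802 in HSC and 0.0714 and 0.220 in MPP, against 0.341 to 0.474 in the Vav controls. None of the 30 passed between MPP and HSC, 16 lay above 0 and 14 below, and the median was 0.07. Ifitm3, a membrane protein that blocks virus entry, stood at 119 and 127 CPM in HSC and 106 and 62.0 in MPP. Ifit1, which binds viral RNA, stood at 1.63 and 3.61 CPM in HSC and 11.1 and 8.09 in MPP, with both MPP libraries higher and a log2 difference of 1.67 (SE 0.63) that did not pass (adjusted p = 0.810 by edgeR's quasi-likelihood test).

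The other lists also held no called gene. The median log2 difference was -0.23 over 7 sort gate genes, 0.02 over 21 immediate early genes, -0.10 over 23 cytokine receptors, 0.00 over 28 haematopoietic transcription factors, -0.25 over 20 glycolysis and hypoxia genes, -0.19 over 12 housekeeping genes and -0.17 over the 20 blood-restricted genes. With the heart term the median was -0.65 over 20 heart genes, -0.62 over 20 stroma and endothelium genes, -0.60 over 14 skeletal muscle, smooth muscle and liver genes, -0.18 over 17 imprinted growth genes and -0.13 over 8 mitochondrially encoded genes. Without the term these 5 medians turned to 2.02, 1.84, 0.92, 1.58 and 0.78. In single libraries, the heart list stood at -0.85 in MPP replicate 1 and 2.93 in MPP replicate 2 against the HSC mean, so that the 2 MPP libraries went in opposite directions.

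**Figure D4:**
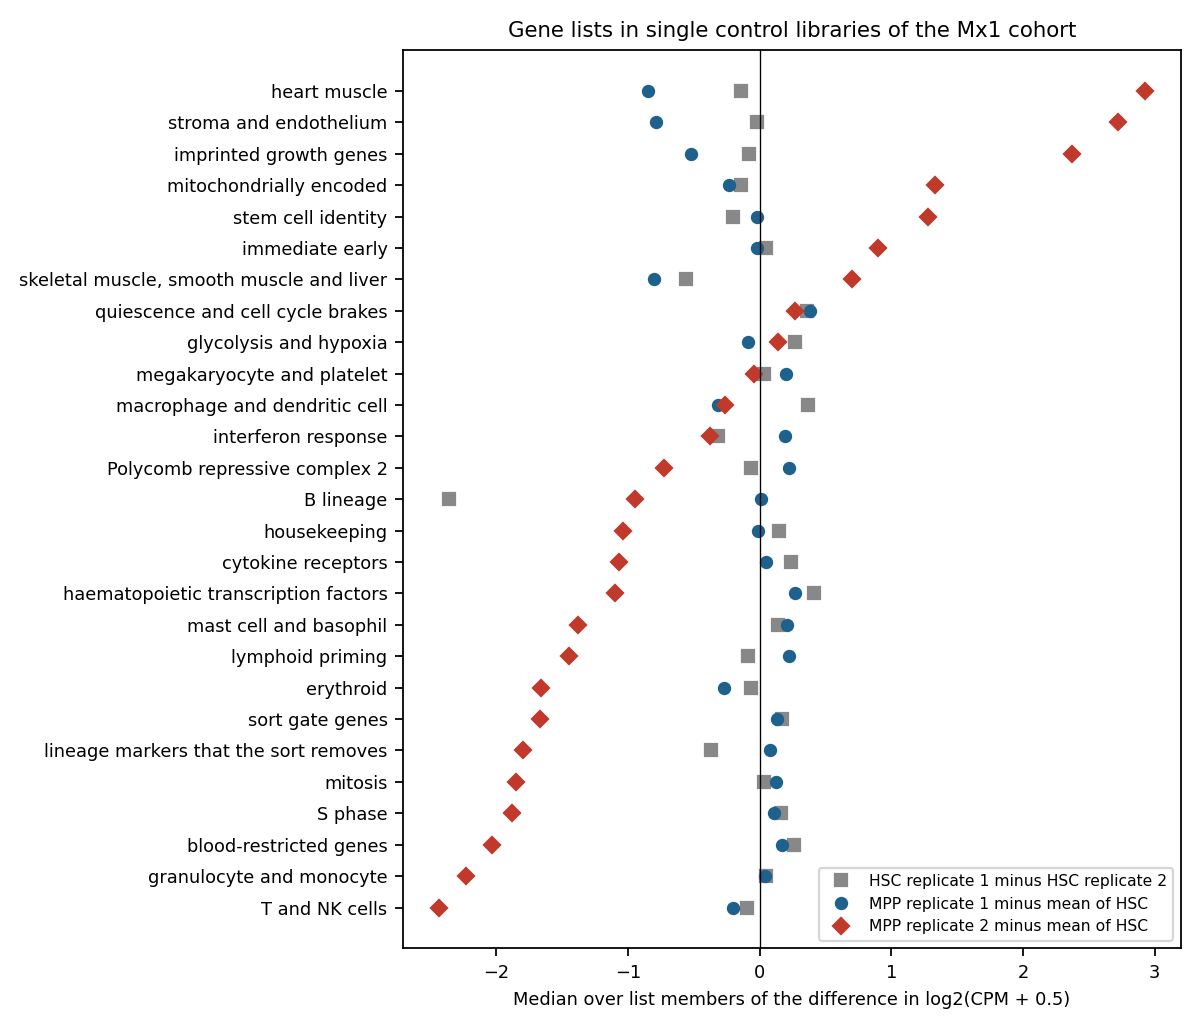
Each row is a gene list, and the points give the median over its tested members of a difference in log2 TMM-normalised CPM. The axis label names CPM + 0.5 instead. The differences are MPP replicate 1 minus the HSC mean (blue), MPP replicate 2 minus the HSC mean (red) and HSC replicate 1 minus HSC replicate 2 (grey). Blue and grey points lie near 0 for most lists, while red points run from -2.44 for T and NK cells to 2.93 for heart muscle; the grey B lineage point is at -2.36.

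Single genes with groups that did not overlap were found in both directions, and none passed the quasi-likelihood test. Tmem140, a gene of a small membrane protein, stood at 0.980 and 1.25 CPM in HSC and 8.98 and 15.1 in MPP (log2 3.33, SE 0.74, adjusted p = 0.346 by edgeR and 0.00169 by DESeq2). Batf2, an interferon-induced transcription factor, stood at 0.131 and 0.278 CPM in HSC and 7.91 and 2.48 in MPP. Stox1 stood at 0.131 and 0.556, and 8.25 and 2.80 CPM, the growth factor gene Btc at 0.131 and 0.625, and 4.83 and 4.21 CPM, and the receptor gene Insrr at 0 and 0.139, and 2.12 and 0.539 CPM. Ifit1bl2 (0.0653 and 1.60, 8.64 and 5.50 CPM), Vmac (0.915 and 0.208, 1.26 and 6.26 CPM) and the immunoglobulin segment Igkv14-126 (0.0653 and 0.0695, 0.145 and 55.8 CPM) complete the 8 genes with the largest positive difference. These HSC levels rest on few reads, and for Igkv14-126 the MPP level came from replicate 2 alone.

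The genes with the largest negative difference were mostly high in HSC replicate 1. The fractalkine receptor gene Cx3cr1, of monocytes and natural killer cells, stood at 52.5 and 9.65 CPM in HSC and 2.03 and 6.36 in MPP (log2 -3.93, SE 0.90, adjusted p = 0.575 by edgeR and 0.00942 by DESeq2). The thymic protease gene Prss16 stood at 19.5 and 3.20, and 0 and 1.94 CPM, and Dnase1l3, a nuclease of macrophages and dendritic cells, at 12.0 and 7.78, and 0.531 and 0.755 CPM. Gnat2 (11.6 and 3.47, 0 and 0.539 CPM), Slc2a6 (18.4 and 4.79, 0.145 and 1.83 CPM), Aldh1a7 (40.5 and 15.6, 0.483 and 2.37 CPM) and the tight junction gene Ocln (0.261 and 3.96, 0.0965 and 0.216 CPM) followed. In these genes HSC replicate 1 was above HSC replicate 2, with Ocln as the exception.

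Among the 25 genes that DESeq2 called, a few were measured by more reads. Xrcc5, the Ku80 subunit of DNA end joining, stood at 14.4 and 26.2 CPM in HSC and 80.0 and 44.1 in MPP (DESeq2 log2 1.70, adjusted p = 0.0153). Csgalnact1, which starts chondroitin sulphate chains, stood at 5.29 and 7.15 CPM in HSC and 19.8 and 21.5 in MPP (DESeq2 log2 2.19, adjusted p = 0.00581). Both had an adjusted p of 0.335 in edgeR's quasi-likelihood test, the lowest in that fit. Xkr8, a lipid scramblase, stood at 41.2 and 24.5 CPM in HSC and 5.31 and 6.79 in MPP, and the chemokine gene Cxcl12 at 85.4 and 29.4 CPM in HSC and 10.4 and 171 in MPP. For Cxcl12 the groups overlapped, and its log2 difference was -2.23 with the heart term and 0.46 without it.

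The same comparison in the Vav controls gave 185 calls among 15818 genes (1.17%), 81 higher (0.512%) and 104 lower (0.657%) in MPP. All 185 were tested in the Mx1 cohort and 0 were called there. Of the 81 genes higher in Vav MPP, with a median log2 difference of 1.70, 19 had the same sign in the Mx1 controls and the median there was -0.33. Both Mx1 MPP libraries lay below both HSC libraries for 23 of the 81 (13.7% of all genes) and above them for 4 (11.2% of all genes). In MPP replicate 1 the median against the HSC mean was 0.06, and in MPP replicate 2 it was -1.71. Of the 104 genes lower in Vav MPP, with a median of -1.91, 57 had the same sign in the Mx1 controls. The median there was -0.08 with the heart term and 0.80 without it. Over all 19616 genes, 7761 lay above 0 and 11854 below with the term, larger shares than 19 of 81 and 57 of 104. Both Mx1 MPP libraries lay below both HSC libraries for 9 of the 104 and above them for 7, and the median against the HSC mean was -0.25 in MPP replicate 1 and 1.33 in MPP replicate 2. Runx1t1, a transcriptional corepressor of stem cells, had means of 116 CPM in Vav HSC and 20.9 in Vav MPP, and stood at 2.35 and 4.31 CPM in Mx1 HSC and 1.5 and 6.79 in Mx1 MPP. Timp3, an inhibitor of matrix proteases, had means of 26.6 and 4.14 CPM in the Vav controls and stood at 12.4 and 21.9, and 15.3 and 121 CPM in the Mx1 controls. Clca3a1 had means of 29.6 and 3.73 CPM and stood at 28.5 and 13.7, and 19 and 4.75 CPM. Ddx4, an RNA helicase known from germ cells, had means of 5.80 and 41.3 CPM and stood at 11.9 and 3.68, and 3.86 and 5.61 CPM.

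**Figure D5:**
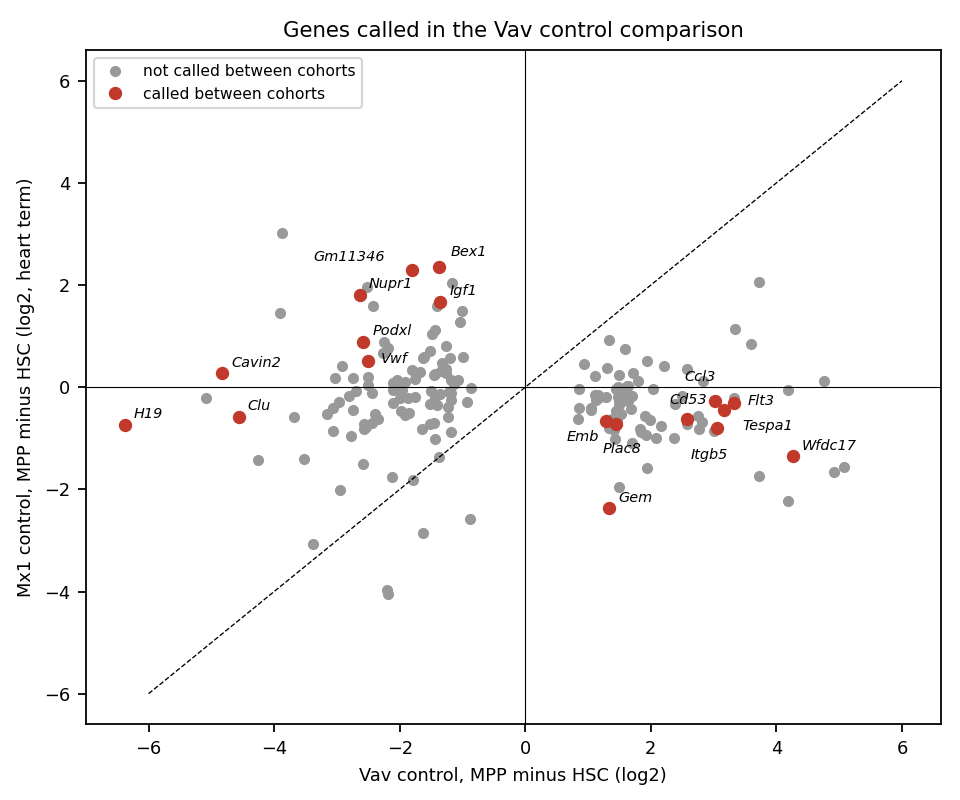
Each point is 1 of 185 genes called in the Vav control comparison, with its log2 difference of MPP minus HSC in the Vav controls (horizontal) and in the Mx1 controls with the heart term (vertical); the dashed line marks equal values and red points passed the test between cohorts. Mx1 values gather around 0 on both sides, with medians of -0.08 for the genes lower and -0.33 for those higher in Vav MPP.

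The difference between the cohorts was tested itself, in a joint fit of all 24 libraries with the heart term that was added after the data were seen. By edgeR's quasi-likelihood test the MPP minus HSC difference of the controls was not the same in the cohorts for 24 of 21453 genes (0.112%), 13 higher (0.0606%) and 11 lower (0.0513%) in Mx1. Of these, 9 were among the 81 genes higher in Vav MPP, all lower in Mx1. Another 9 were among the 104 genes lower in Vav MPP, all higher in Mx1. Those lists were picked from the Vav libraries that this test also uses, so these directions were largely set by the selection. Flt3 had a log2 difference of 3.33 (SE 0.38) in Vav and -0.30 (SE 0.39) in Mx1, and the Mx1 value was lower by a log2 of -3.63 (SE 0.64, adjusted p = 0.0183). The leukocyte gene Cd53 (-3.23, SE 0.57, adjusted p = 0.0183) and the T cell signalling gene Tespa1 (-3.63, SE 0.74, adjusted p = 0.0431) and the chemokine gene Ccl3 (-3.28, SE 0.62, adjusted p = 0.0244) went the same way. Vwf, whose protein tethers platelets and which marks a subset of stem cells, had a log2 difference of -2.51 (SE 0.23) in Vav and 0.51 (SE 0.39) in Mx1, a gap of 3.04 (SE 0.49, adjusted p = 0.00584). Nupr1, a stress-induced chromatin protein, stood at 0.523 and 7.22 CPM in Mx1 HSC and 12.8 and 6.90 in Mx1 MPP, and its gap was 4.48 (SE 0.70, adjusted p = 0.00516). The chaperone gene Clu stood at 49.9 and 54.9, and 23.4 and 317 CPM, and its gap was 4.02 (SE 0.58, adjusted p = 0.00246). For Slamf1 the gap of 5.39 (SE 1.17) missed the threshold (adjusted p = 0.0959).

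The count of 24 depended on the control HSC libraries. It was 4 without HSC replicate 1 (Nupr1, Clu, Csgalnact1 and Itgb5), 384 without HSC replicate 2, and 33 and 29 without MPP replicates 1 and 2. Nupr1, Clu and the integrin gene Itgb5 passed under each of these 4 omissions and by DESeq2 and limma-voom. Flt3 did not pass without HSC replicate 1 (adjusted p = 0.133) or without MPP replicate 2 (0.0761). In 7 of the 24 genes MPP replicate 2 was far above the other 3 Mx1 control libraries, as it was for the heart genes. These were Itgb5 (15.6 and 16.0, 7.96 and 104 CPM), the muscle LIM protein gene Csrp3 (75.5 and 98.3, 43.5 and 709 CPM), the imprinted growth gene H19 (18.9 and 20.9, 11.2 and 143 CPM), Podxl (11.2 and 18.8, 13.0 and 119 CPM), Vwf (22.6 and 30.5, 30.7 and 104 CPM), Clu and Cavin2. Without MPP replicate 2 these 7 gaps kept their signs (Itgb5 -4.05, Csrp3 -4.29, H19 5.44, Podxl 2.4, Vwf 2.73, Clu 3.4, Cavin2 4.59). The heart term leaves differences in heart share among the low libraries in place. In MPP replicate 1, Itgb5, Csrp3, H19, Clu and Cavin2 were below both HSC libraries, and Podxl and Vwf were not. Heart genes stood there at a median of 0.54 times the HSC mean. In Vav controls Csrp3 stood at 0.0367 to 1.89 CPM, Itgb5 at 0.771 to 8.68, and H19 in MPP at 0.0441 at most. The part of heart transcripts in these gaps was not tested.

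The MPP minus HSC difference was also compared between genotypes within the Mx1 cohort, where both tests share the control libraries. In Jak2V617F against control, 0 of 19616 genes passed (0%) by edgeR's quasi-likelihood test, with 755 at an unadjusted p under 0.05, 2 by DESeq2 and 0 by limma-voom. Without control HSC replicate 2 the count was 95. In the double mutant against control, 3 of 19616 passed (0.0153%), 2 with a higher difference in the double mutant (0.0102%) and 1 with a lower one (0.0051%), and the count was 0 without the heart term. Cd24a, a surface glycoprotein of early erythroid and lymphoid cells, had a log2 difference of -0.44 (SE 0.33) in control and 2.55 (SE 0.33) in the double mutant, a gap of 2.99 (SE 0.48, adjusted p = 0.00444). It stood at 361 and 349 CPM in control HSC and 264 and 112 in control MPP, and at 80.1 and 136, and 271 and 1256 in the double mutant. Blvrb, a biliverdin reductase of erythroid cells, had -0.20 (SE 0.34) and 2.86 (SE 0.34), a gap of 3.06 (SE 0.50, adjusted p = 0.00444). Csgalnact1 had 2.16 (SE 0.46) and -1.58 (SE 0.42), a gap of -3.74 (SE 0.63, adjusted p = 0.00613). In the double mutant it stood at 67.0 and 161 CPM in HSC and 20.2 and 52.6 in MPP, so the order of the cell types was the opposite of that in the controls. The count of 3 was 16, 219, 9 and 9 without control HSC replicates 1 and 2 and control MPP replicates 1 and 2, respectively.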

How the data were processed

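RNA-seq of sorted mouse cells came as 24 gene tables, each holding a single library. The submitters' processing notes name HTSeq 0.8.0, featureCounts 1.4.5 from Subread, Partek 6.6, STAR 2.0.4 and the build mm10, without saying what each was used for. Per the labels' protocols, libraries were made with a SMARTer Ultra Low kit from 3 to 5 ng of RNA. Raw counts for 41388 Ensembl genes are in the deposited count column, and 40254 genes are named. The deposited CPM column is the count scaled to the library total and the deposited RPKM column is CPM over gene length, per the file headers and as checked by recomputing them; the listed gene lengths were the same in both cohorts for all 41388 genes. All fits used the counts, and levels in the text are CPM recomputed from them. Pair percentages and list medians of single libraries used log2 CPM with TMM normalisation and a small prior count. Depth was 7852483 to 20724168 counts per Mx1 library and 10473535 to 27232379 per Vav library, and intervals from counts alone cover counting error only.

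The 12 Mx1 libraries were fitted together in edgeR 4.0.16 under R 4.3.3 (filterByExpr with a minimum count of 10 and a minimum total of 15, TMM, robust quasi-likelihood F test), with 6 groups and a heart term that is 1 for libraries with over 4% of counts in the heart list. This left 19616 genes and 5 residual degrees of freedom, or 6 without the term. Benjamini-Hochberg adjusted p-values under 0.05 were called. The 12 Vav libraries were fitted separately, with 8 residual degrees of freedom, and all 24 jointly for the test between cohorts, with 13. A standard error (SE) is the log2 difference over the square root of F. The scripts were tested on simulated data. Alternatives were DESeq2 1.42.0 and limma 3.58.1 (voom with quality weights), DESeq2 size factors, other filters, a replicate block, a continuous heart covariate, fits without heart and mitochondrial genes, only the 4 control libraries, and leaving out each library. The joint fit, the blood list as library size and the DESeq2 size factors in the Vav fit were added after seeing the data.

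Named genes are the sort markers, Jarid2, Jak2, Ttn and Myh6, the 8 largest differences in each direction (no overlap, average logCPM 2 or more, leaving out predicted genes, small RNA genes, unnamed loci and heart genes), up to 4 called or the 2 most abundant members of each list, and the 6 rises and 6 falls of smallest p in the Vav controls; list members and genes called by other tests were named beside them after their values were seen. The members and the 27 gene lists were chosen with earlier results of these data known. Some genes that this rule selects are not reported here.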

Additional observations from a re-analysis of the deposited data

Results flagged for a closer look

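In 24 genes the MPP minus HSC difference of the controls was not the same in the Mx1 and Vav cohorts by a test of that difference itself (edgeR's quasi-likelihood test, 24 libraries, all genes adjusted together). On the log2 scale, Mx1 minus Vav, the positive values were 5.85 for Insrr, 5.55 for H19, 5.14 for Cavin2, 4.74 for Stox1, 4.48 for Nupr1, 4.13 for Gm11346, 4.02 for Clu, 3.81 for Bex1, 3.64 for Tmem140, 3.52 for Podxl, 3.05 for Igf1, 3.04 for Vwf and 2.82 for Csgalnact1. The negative values were -5.58 for Wfdc17, -4.02 for Csrp3, -3.83 for Itgb5, -3.70 for Gem, -3.63 for Flt3, -3.63 for Tespa1, -3.28 for Ccl3, -3.23 for Cd53, -3.15 for Gm5111, -2.16 for Plac8 and -1.96 for Emb. Wfdc17, a secreted protein gene of macrophages, had means of 7.98 CPM in Vav HSC and 160 in Vav MPP, and stood at 11.5 and 12.0 CPM in Mx1 HSC and 2.70 and 7.01 in Mx1 MPP. The growth factor gene Igf1 had means of 27.4 and 11.3 CPM in the Vav controls and stood at 1.37 and 7.99, and 14.1 and 30.7 CPM in the Mx1 controls. Plac8 had means of 160 and 457 CPM and stood at 1132 and 1403, and 966 and 355 CPM. Csrp3 is a member of the heart list. Limma-voom called 12 of these 24 genes.

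In 3 genes the difference in the double mutant was not that of the controls by the same kind of test within the Mx1 cohort. The values of double mutant minus control were 3.06 for Blvrb, 2.99 for Cd24a and -3.74 for Csgalnact1 on the log2 scale. In the controls, Blvrb stood at 95.5 and 151 CPM for HSC and at 97.2 and 46.8 for MPP. The double mutant held 35.1 and 69.9 CPM of it in HSC, with 150 and 758 in MPP, where replicate 2 was far above replicate 1. These 3 genes also passed by DESeq2 and limma-voom.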

How the results depend on the processing

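With the heart term, the count of 0 genes for MPP against HSC (1113 at an unadjusted p under 0.05) became 15 with no filter, 25 by DESeq2 and 0 to 321 when each control library was left out. It remained 0 under the other 7 alternatives, a replicate block among them. Without the term, 0 (523 at an unadjusted p under 0.05) became 5 with no filter and 3 by DESeq2, and remained 0 under the others, each omission included; the blood list as library size moved the median of all genes to 1.33. For Jak2V617F minus control, 0 (755 at an unadjusted p under 0.05) became 2 by DESeq2 and 0 to 95 over omissions. For the double mutant minus control, 3 became 91 by DESeq2, 36 by limma-voom, 12 with the replicate block, 0 without the heart term and 9 to 219 over omissions. In the Vav controls, 185 became 474 by DESeq2 and 61 to 102 over omissions, with 125 under the replicate block. Between cohorts, 24 became 193 by DESeq2 and 4 to 384 over omissions. Deviations of same-numbered Mx1 control libraries correlated at 0.045, against -0.016 in Jak2V617F and 0.523 in the double mutant. They were not adjusted for heart transcripts. Of the controls only MPP replicate 2 was high in these, while in the double mutant replicate 1 was high in both cell types (7.99% and 8.87%). The correlations therefore cannot decide whether replicate numbers pair the libraries, and the labels tie no number to a pool. Of 105 named genes, 25 changed sign without the heart term, 1 with DESeq2 size factors, and 15, 11, 9 and 27 without HSC replicates 1 and 2 and MPP replicates 1 and 2, respectively; 9 of 27 list medians moved beyond their spread without the heart term. Where an omission leaves 1 library, it is assumed to vary like the other groups. The cause of these shifts was not tested.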
